A study of Mus musculus with 8 samples.

Results

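The measurement described here is the change between passages in neurospheres that carried Nr2f1/2 shRNA: the array labelled shNr2f1/2_P2 was set against the array labelled shNr2f1/2_P0, 1 array a side. These are 2 of the 8 arrays of the study, chosen by their titles. The cells were neural stem and progenitor cells (NSPCs) grown as neurospheres from EB3, a single line of mouse embryonic stem cells, through embryoid bodies formed with Noggin. Dissociated embryoid body cells were infected with lentivirus at a multiplicity of about 25 and cultured in suspension with 20 ng/ml FGF2. P2 denotes tertiary neurospheres, after further rounds of dissociation and culture, and P0 denotes primary neurospheres cultured for 6 days. The other 3 conditions, each with 1 P2 and 1 P0 array, are control shRNA against firefly luciferase, control miRNA and miR-17, and they serve only as context. All cells were infected and all received FGF2, so no uninfected or growth factor-free cells enter any comparison. The labels do not say that the cultures were independent, and each group holds 1 array, so no direct comparison between a P2 and a P0 array has a replicate check.

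Neural stem cells of the developing brain first produce neurons and later glia. COUP-TFI and COUP-TFII, the orphan nuclear receptors encoded by Nr2f1 and Nr2f2, are known for their part in this change of competence, and neurospheres made from embryonic stem cells pass through it as they are passaged. The comparison asks which genes still differ between P2 and P0 when both receptors are targeted by shRNA. Astrocyte and oligodendrocyte genes, proneural genes, genes of temporal identity and genes of the cell cycle are therefore described first.

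Values are relative signals: a probe's processed intensity as a multiple of the 75th percentile of its array, so that a value of 1 lies at that percentile on every array. Changes are log2 of the P2 value over the P0 value. Brightness depends on the probe, so levels are compared between arrays and never between genes. Where 1 array of the pair was not well above background, the fold is a lower bound, written as at least N-fold, taken against the dimmest signal that was well above background on that array or the gene's own signal there, whichever was higher. The targeted genes were read first. Nr2f1 had a relative signal of 13.3 at P2 and 41.3 at P0 with Nr2f1/2 shRNA, against 29.9 at P2 and 71.4 at P0 with control shRNA. Nr2f2 had 3.15 at P2 and 7.06 at P0 with Nr2f1/2 shRNA, against 5.88 and 10 with control shRNA. Both targets were lower with Nr2f1/2 shRNA than with control shRNA at each passage, and both remained well above background, so the pair describes reduced and not absent expression. Both were also lower at P2 than at P0 within the Nr2f1/2 shRNA pair, with changes of -1.64 for Nr2f1 and -1.16 for Nr2f2 on the log2 scale, beside -1.26 and -0.77 with control shRNA. Nr2f6, a related receptor, had 12.7 at P2 and 16.5 at P0 with Nr2f1/2 shRNA.

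The labelled cell type was checked against its markers. Sox2, Sox1, Nes, Vim and Fabp7, genes of neural stem cells and radial glia, were well above background on both arrays of the pair, with relative signals of 9.81, 9.86, 6.46, 96.3 and 80.7 at P2 and 8.36, 6.56, 8.1, 74.3 and 42.5 at P0. Pax6, a transcription factor of neural progenitors, was lower at P2 (0.483) than at P0 (1.35). The 20 genes of the neural stem and radial glia list had a median change of -0.02 log2 units, with 3 at least 2-fold higher and 1 at least 2-fold lower. All 8 arrays lay on 1 slide. The P2 array of each condition lay 2 rows below its P0 array, so slide row and passage cannot be told apart, and the shRNA and miRNA arrays lay in separate slide columns. The share of spots well above background was 67.3% at P2 and 63.2% at P0 in the Nr2f1/2 shRNA pair, and 57.9% to 67.9% over the 8 arrays. Probes printed 10 times on an array had a median coefficient of variation of 5.98% at P2 and 6.47% at P0 in the pair, which covers spot noise and not culture noise.

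Of 27255 genes compared, 25776 were well above background on at least 1 array of the Nr2f1/2 shRNA pair. At P2, 1338 of them were at least 2-fold higher than at P0 (5.19%) and 1760 were at least 2-fold lower (6.83%). The median change over these 25776 genes was -0.09 log2 units. At least 4-fold differences were seen for 344 genes that were higher and 348 that were lower, and at least 8-fold differences for 85 and 78. The same limit counted 11.6% of genes higher and 13% lower with control shRNA, 15.3% and 25% with control miRNA, and 14.5% and 27% with miR-17. The standard deviation of the change over all genes was 0.83 log2 units with Nr2f1/2 shRNA, against 1.21 with control shRNA, 1.71 with control miRNA and 1.73 with miR-17. The P2 and P0 arrays of the Nr2f1/2 shRNA pair thus differed by less than those of each other pair. Total RNA of whole cultures was measured, so fewer cells of a type and less RNA per cell cannot be told apart in any value below.

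**Figure D1:**
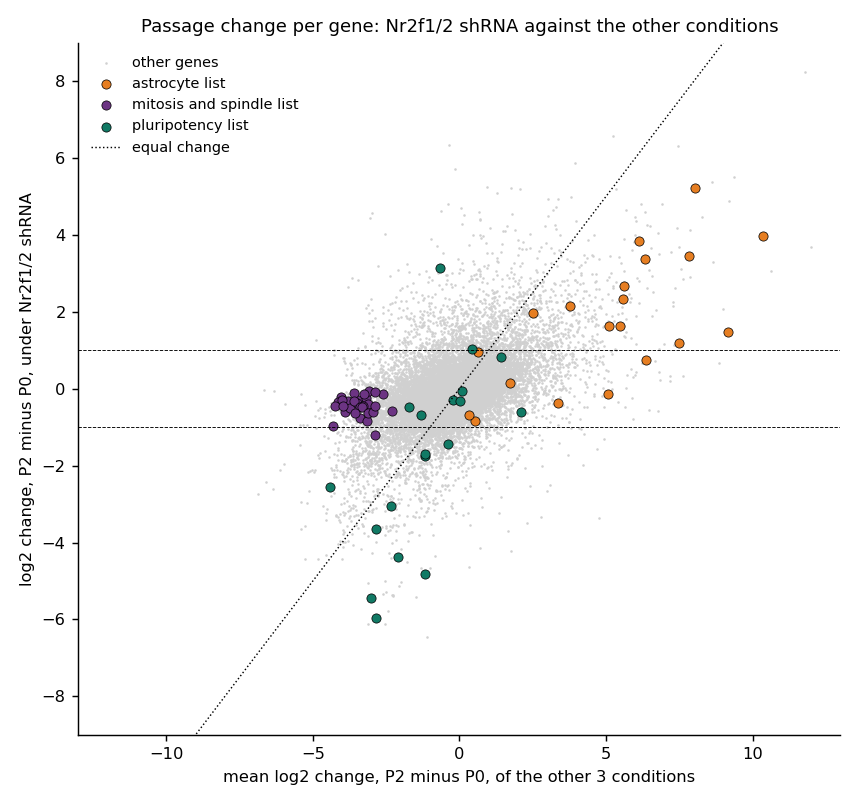
Each point is 1 gene. The vertical axis is the log2 change, P2 minus P0, under Nr2f1/2 shRNA, and the horizontal axis is the mean log2 change of the other 3 conditions. Coloured points are the astrocyte, mitosis and pluripotency lists, the dotted diagonal marks equal change and the dashed lines mark the 2-fold limit. Mitosis genes lie far to the left and all below 0 on the vertical axis, but close to it (median -0.45). Most astrocyte genes lie to the right, above 0 but below the diagonal (median 1.63).

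The other 3 conditions were tested together in limma, with condition as a block and a passage term of their own, and Benjamini-Hochberg adjustment over all 27255 genes. The error of this fit is the spread of the passage change between these 3 conditions, which differ in treatment and are not replicates. In them 2176 genes rose with passage (7.98%) and 2610 fell (9.58%). Genes that rose were 45.5% of these calls, and 56.9% after quantile normalization. Of the 2176 genes that rose, 2034 could be read in the Nr2f1/2 shRNA pair, where 597 were at least 2-fold higher, 1164 were higher by less and 273 were in the opposite direction. Their median change was 0.62 log2 units with Nr2f1/2 shRNA, against 1.81 with control shRNA, 2.33 with control miRNA and 2.24 with miR-17. Of the 2610 genes that fell, 2431 could be read, and 565 were at least 2-fold lower, 1538 were lower by less and 328 were in the opposite direction. Their median change was -0.54 log2 units with Nr2f1/2 shRNA, against -1.49, -2.14 and -2.11 in the other 3. So 29.4% of the readable genes that rose and 23.2% of those that fell still differed at least 2-fold the same way. Over all genes readable in the pair, 5.19% were at least 2-fold higher and 6.83% at least 2-fold lower. Of the readable genes that rose and fell in the other 3, 86.6% and 86.5% were in the same direction at any size. These calls rest on the miRNA-system arrays: without the control miRNA pair or without the miR-17 pair, no gene passed in the other conditions, where 5564 and 5766 genes had an unadjusted p under 0.05. A count that uses no model was made as well. Of 1667 genes at least 2-fold higher in each of the other 3 pairs, 584 (35.0%) were at least 2-fold higher with Nr2f1/2 shRNA, and of 1712 at least 2-fold lower in each, 420 (24.5%) were at least 2-fold lower. The genes of this count and of the limma calls were chosen for their change in the other 3 conditions, and such a choice by itself favours a smaller change in the pair it did not use.

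In the same fit, the passage change under Nr2f1/2 shRNA alone passed the threshold for 0 genes (smallest adjusted p = 0.551, 1313 genes at an unadjusted p under 0.05). The difference between that change and the mean change of the other 3 conditions also passed for 0 genes (smallest adjusted p = 0.541, 2150 at an unadjusted p under 0.05). No gene below is therefore shown to respond differently to passage with Nr2f1/2 shRNA than without it, and the values are given side by side. Without the control shRNA pair the difference passed for 3388 genes.

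Read from the Nr2f1/2 shRNA pair, 987 of its 1338 higher genes (73.8%) were also at least 2-fold higher with control shRNA, 674 (50.4%) with control miRNA and 689 (51.5%) with miR-17. Among all readable genes of those conditions, 11.6%, 15.3% and 14.5% were at least 2-fold higher. The shared genes made up 33.9%, 16.9% and 17.8% of those conditions' own lists of higher genes, beside 5.19% of all genes readable in the Nr2f1/2 shRNA pair. Of the 1760 lower genes, 723 (41.1%) were also at least 2-fold lower with control shRNA, 976 (55.5%) with control miRNA and 1123 (63.8%) with miR-17. Among all readable genes of those conditions, 13%, 25% and 27% were at least 2-fold lower. The shared lower genes were 22.1%, 15% and 15.6% of those conditions' lists of lower genes, beside 6.83% of all genes readable in the Nr2f1/2 shRNA pair. Among the higher genes 254 (19%), and among the lower genes 321 (18.2%), reached the limit in no other pair. Across genes, the change under Nr2f1/2 shRNA had a Pearson correlation of 0.58 with that under control shRNA, 0.40 with control miRNA and 0.44 with miR-17. Genes are not independent replicates, and each pair's values come from the same 2 arrays throughout.

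Many regulators of gliogenesis were higher at P2 under Nr2f1/2 shRNA, with a smaller median change than in the other conditions. Of 16 readable genes, 9 had a P2 signal at least 2-fold above that at P0 and none was 2-fold lower, with a median change of 1.28 log2 units beside -0.09 for all genes. The medians of the list were 1.94 with control shRNA, 2.57 with control miRNA and 2.67 with miR-17. Nfix, a nuclear factor I (NFI) transcription factor of astrocyte differentiation, had a relative signal of 1.74 at P2, against 0.123 at P0, with Nr2f1/2 shRNA. It had 6.32 against 0.151 with control shRNA, 13 against 0.213 with control miRNA and 13.9 against 0.152 with miR-17. Nfix was thus higher on every P2 array than on every P0 array, with the Nr2f1/2 shRNA array lowest of the P2 arrays. Nfib, another member of the family, had 22.3 at P2 and 5.25 at P0 with Nr2f1/2 shRNA, against 31.3 and 7.42 with control shRNA. Its change of 2.09 log2 units lay beside 2.08 with control shRNA, 2.63 with control miRNA and 3.17 with miR-17, and Nfia (1.75 log2 units) and Nfic (1.36) were also at least 2-fold higher under Nr2f1/2 shRNA. Id1, a target of BMP signalling that blocks proneural proteins, had 6.76 at P2 and 1.64 at P0, a change of 2.04 log2 units beside 1.84, 2.29 and 2.67 in the other 3. Id3 (1.74 log2 units), Zbtb20 (1.19) and Olig1 (2.96) were higher as well. Sox8, a SoxE factor of glial progenitors, had 0.0895 at P2 and was not well above background at P0 (0.00729), so it was at least 3.11-fold higher.

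Other gliogenic regulators were close to equal at P2 and P0. Sox9, a SoxE factor that starts gliogenesis, had 2.69 at P2 and 2.16 at P0, a change of 0.32 log2 units. Sox10, the SoxE factor of the oligodendrocyte lineage, had 0.279 at P2 and 0.216 at P0 with Nr2f1/2 shRNA. With control shRNA it had 6.5 and 0.164, with control miRNA 10.7 and 0.194, and with miR-17 12.6 and 0.185. The 4 P0 arrays were alike for Sox10, and only the P2 array with Nr2f1/2 shRNA lay near them. Olig2, which specifies oligodendrocytes and motor neurons, had 1.06 at P2 and 1.6 at P0 with Nr2f1/2 shRNA, a change of -0.59 log2 units beside 1.53, 1.78 and 1.87 in the other 3.

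Astrocyte genes were higher at P2 but short of the level in the other conditions. Of 20 readable genes of the list, 13 were at least 2-fold higher and none was 2-fold lower, with a median of 1.63 log2 units, or 1.47 with dim arrays at their bound. The medians were 4.34 with control shRNA, 6.42 with control miRNA and 5.34 with miR-17. Under Nr2f1/2 shRNA the median was 0.76 after normexp background correction and 1.06 with only genes well above background on all 8 arrays. All 13 belonged to the 16 members that rose in the other 3 conditions. Sparcl1, a secreted glycoprotein of astrocytes, had a relative signal of 40.5 at P2 and 2.8 at P0 with Nr2f1/2 shRNA, a change of 3.85 log2 units. It had 190 and 3.49 with control shRNA, 513 and 4.53 with control miRNA, and 398 and 7.32 with miR-17. Every P2 array was above every P0 array for Sparcl1. Mlc1, a membrane protein of astrocyte endfeet, had 20.3 at P2 and 1.94 at P0, and Aldoc, an aldolase of astrocytes, had 50.6 and 11.4. Aldh1l1, a folate enzyme used as a broad astrocyte marker, had 5.12 at P2 and 1.02 at P0. S100b, a calcium-binding protein of glia, had 0.12 at P2 and was not well above background at P0, so it was at least 4.17-fold higher, while its P2 relative signals in the other 3 conditions were 7.14, 32.8 and 24.8.

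Markers of more mature astrocytes were near the bottom of their range under Nr2f1/2 shRNA. Gfap, the intermediate filament of astrocytes, had 0.15 at P2 and 0.0541 at P0 with Nr2f1/2 shRNA. It had 3.83 and 0.0508 with control shRNA, 76.4 and 0.0388 (not well above background) with control miRNA, and 86.9 and 0.0698 with miR-17. The change was 1.47 log2 units beside 6.24, 10.94 and 10.28. Aqp4, the water channel of astrocyte endfeet, had 0.337 at P2 and 0.149 at P0 with Nr2f1/2 shRNA, against 7.15 and 0.116 with control shRNA. Both genes passed the 2-fold limit with Nr2f1/2 shRNA, and their P2 signals stayed below those of the other 3 conditions. Gja1, the gene of connexin 43, had 0.846 at P2 and 1.09 at P0, and Apoe, the main lipid carrier of astrocytes, had 17.9 and 19.7, so neither reached the limit.

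Genes of oligodendrocyte precursors gave a mixed picture. Of 13 readable genes, 10 were at least 2-fold higher and 2 at least 2-fold lower at P2, with a median of 1.59 log2 units beside 4.90 with control shRNA, 4.12 with control miRNA and 3.08 with miR-17, and with 0.87 under Nr2f1/2 shRNA after normexp. Bcan, the lectican brevican of the glial matrix, showed the largest increase of any named gene well above background on both arrays of the pair. Its relative signal was 11.9 at P2 and 0.285 at P0 with Nr2f1/2 shRNA, a change of 5.38 log2 units. It was 109 and 0.436 with control shRNA, 228 and 0.443 with control miRNA, and 186 and 0.38 with miR-17. Tmem176b, a membrane protein with a cation channel role in immune cells, had 20.5 at P2 and 3.75 at P0, a change of 2.46 log2 units beside 2.03, 1.75 and 2.88. Pdgfra, the receptor that defines these precursors, had 0.572 at P2 and 0.259 at P0, and Cspg4, the NG2 proteoglycan, had 0.24 and 0.0796. Gpr17, a receptor of precursors about to differentiate, had 0.0924 at P2 and was not well above background at P0, so it was at least 3.21-fold higher. Its P2 signals were 39.6, 58.2 and 77.3 in the other 3 conditions, far above that array. Bcas1, a marker of early myelinating cells, was lower at P2 (0.311) than at P0 (0.704) with Nr2f1/2 shRNA, while it rose in the other 3 conditions (limma adjusted p = 0.020).

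Myelin genes that could be read showed a median passage change close to 0 under Nr2f1/2 shRNA. Of 15 listed genes, Myrf, Opalin, Aspa, Mal and Pllp were well above background on neither array of the pair and could not be read. Of 10 readable genes 1 was at least 2-fold higher, and the median was -0.10 log2 units. Over the same 10 genes the medians were 1.41 with control shRNA, 4.26 with control miRNA and 4.43 with miR-17. Mag, a myelin adhesion protein, had 0.117 at P2 and 0.175 at P0 with Nr2f1/2 shRNA, against 2.18 and 0.156 with control shRNA, 37.5 and 0.172 with control miRNA and 52.2 and 0.12 with miR-17. The exception was Cnp, an enzyme of oligodendrocytes that is made before compact myelin, with 0.731 at P2 and 0.128 at P0.

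**Figure D2:**
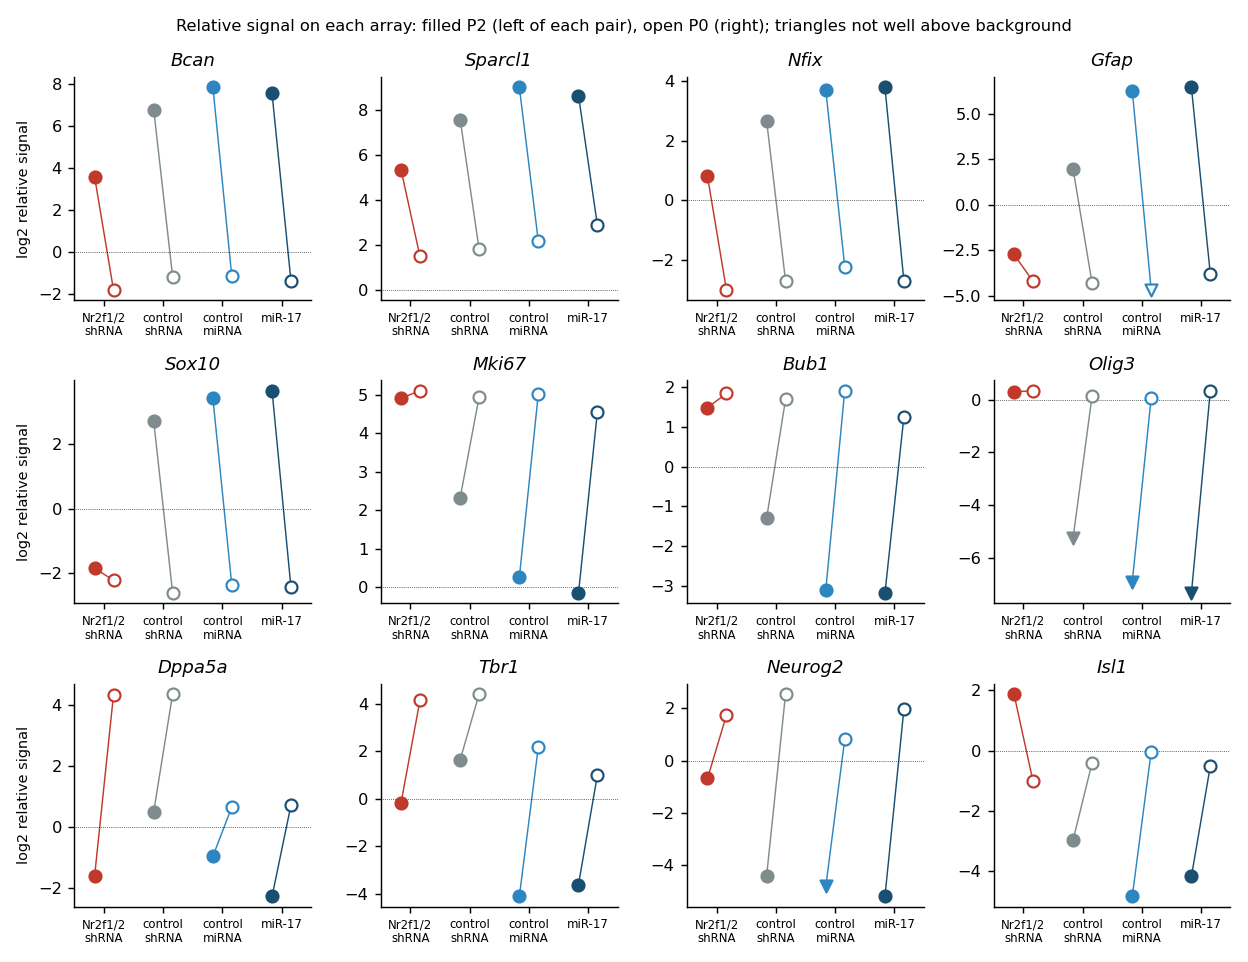
Log2 relative signal of 12 genes on the 8 arrays, with Nr2f1/2 shRNA first in each panel. Filled symbols at the left of each pair are P2 arrays, open symbols at the right are P0 arrays, and triangles mark arrays on which the gene was not well above background. Bcan, Sparcl1 and Nfix are higher on all 4 P2 arrays, Sox10, Mki67, Bub1 and Olig3 differ little within the Nr2f1/2 shRNA pair, and Isl1 is higher at P2 there and lower at P2 in the other 3 conditions.

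Proneural and neurogenesis genes were lower at P2 under Nr2f1/2 shRNA. Of 25 readable genes, 13 were at least 2-fold lower and 1 was at least 2-fold higher, with a median of -1.26 log2 units, against -2.35 with control shRNA, -3.31 with control miRNA and -3.19 with miR-17. The median under Nr2f1/2 shRNA was -0.79 with only genes well above background on all 8 arrays. Of the 18 that fell in the other 3 conditions, 12 were at least 2-fold lower with Nr2f1/2 shRNA. Neurog2, a proneural factor that starts neuronal differentiation, had 0.621 at P2 and 3.32 at P0 with Nr2f1/2 shRNA, a change of -2.42 log2 units. It had 0.0471 and 5.86 with control shRNA, 0.0353 (not well above background) and 1.76 with control miRNA, and 0.0271 and 3.89 with miR-17. The P2 array with Nr2f1/2 shRNA was thus below all P0 arrays and above all other P2 arrays. Neurod1, a factor downstream of the neurogenins, had 0.222 at P2 and 0.964 at P0, and Eomes, the T-box factor of intermediate progenitors, had 0.275 and 3.15. Tbr1, the T-box factor of early-born cortical projection neurons, had 0.88 at P2 and 17.6 at P0 with Nr2f1/2 shRNA, a change of -4.32 log2 units beside -2.77, -6.28 and -4.62. Insm1, a factor of delaminating progenitors, had 10.5 at P2 and 11.2 at P0 and did not reach the limit. Onecut2 was the 1 member at least 2-fold higher (15.4 at P2, 6.7 at P0).

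Selector genes of hindbrain and spinal neurons were lower as well. Of 23 readable genes, 14 were at least 2-fold lower and 1 at least 2-fold higher, with a median of -1.25 log2 units. Phox2a, a homeodomain factor of noradrenergic neurons, had 0.11 at P2 and 1.3 at P0 with Nr2f1/2 shRNA, and 0.15 and 1.38 with control shRNA. Dbh, an enzyme of noradrenaline synthesis, was at least 10.6-fold lower. Lhx1, a LIM factor of several interneuron classes, had 0.5 at P2 and 5.16 at P0, a change of -3.37 log2 units beside -3.22, -4.77 and -3.35. Isl1, the LIM factor of motor neurons and ventral forebrain neurons, was the 1 member at least 2-fold higher, with 3.68 at P2 and 0.502 at P0 with Nr2f1/2 shRNA. In the other conditions Isl1 had 0.128 and 0.752 with control shRNA, 0.035 and 0.976 with control miRNA, and 0.0554 and 0.701 with miR-17, and it fell there (limma adjusted p = 0.022). Genes of differentiated neurons changed less: the 25 pan-neuronal genes had a median of -0.07 log2 units, with 2 at least 2-fold higher and 4 at least 2-fold lower.

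Heterochronic and growth genes, a list that joins genes of early temporal identity with D-type cyclins and Myc genes, were lower at P2 in the Nr2f1/2 shRNA pair. Of 16 readable members, 10 were at least 2-fold lower and none was 2-fold higher, with a median of -1.11 log2 units, against -1.54 with control shRNA, -2.52 with control miRNA and -2.27 with miR-17. Hmga2, a chromatin protein of young stem cells, had 1.32 at P2 and 4.37 at P0 with Nr2f1/2 shRNA. With control shRNA it had 0.462 and 2.99, with control miRNA 0.0331 (not well above background) and 3, and with miR-17 0.0725 and 2.81. Lin28b, an RNA-binding protein that blocks let-7 maturation, had 2.86 at P2 and 7.42 at P0, and its relative Lin28a had 0.531 and 1.43. Trim71, a let-7 target, had 0.455 at P2 and 2.05 at P0. Ccnd1 and Ccnd2, D-type cyclins, had 4.59 and 8.26 at P2 and 15.2 and 23.4 at P0. Igf2bp1, an RNA-binding protein of the same early set, had 1.66 at P2 and 3.2 at P0, just inside the 2-fold limit.

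The mitosis list showed a small but uniform passage change under Nr2f1/2 shRNA. Each of its 30 genes was lower at P2 there, with changes between -1.21 and -0.07 log2 units. All 30 of its genes fell in the other 3 conditions, and 1 of the 30, the kinetochore protein gene Cenpf, was at least 2-fold lower with Nr2f1/2 shRNA. The list's median change was -0.45 log2 units with Nr2f1/2 shRNA, against -2.56 with control shRNA, -4.06 with control miRNA and -3.63 with miR-17. Mki67, the proliferation antigen Ki-67, had 30 at P2 and 34.5 at P0 with Nr2f1/2 shRNA. It had 5.02 and 30.9 with control shRNA, 1.2 and 32.4 with control miRNA, and 0.902 and 23.7 with miR-17. The P0 arrays were alike for Mki67, and the P2 array with Nr2f1/2 shRNA lay within their range. Bub1, a spindle checkpoint kinase, had 2.79 at P2 and 3.56 at P0, Kif23, a kinesin of the central spindle, had 1.58 and 2.17, and Prc1, which bundles that spindle, had 3.25 and 5.83. Summed over the list, the relative signal was 153.5 at P2 and 194.6 at P0 with Nr2f1/2 shRNA, against 31.7 and 184.2 with control shRNA, 14.8 and 245.2 with control miRNA and 14.8 and 172.8 with miR-17.

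DNA replication genes did not reach the limit at all. Of 29 readable genes, 0 were 2-fold higher or lower with Nr2f1/2 shRNA, with a median of 0.05 log2 units, while 23 of them fell in the other 3 conditions (medians -1.47, -2.64 and -2.29). Mcm5, a subunit of the replicative helicase, had 5.92 at P2 and 4.49 at P0 with Nr2f1/2 shRNA, and 1.06 and 2.96 with control shRNA. Replication-dependent histone genes had a median of 0.12 log2 units, against -2.55, -2.42 and -1.78, and 9 of the 11 fell in the other 3 conditions. H3c1, a histone H3 gene, was the 1 member at least 2-fold higher (1.63 at P2, 0.536 at P0), and H2ac6, a histone H2A gene, the 1 at least 2-fold lower (0.0328 at P2, 0.46 at P0). Histone genes of this family are near copies of each other, so their probes may share signal. Cholesterol and fatty acid synthesis genes were lower by less than the limit in 23 of 26 cases, with a median of -0.55 log2 units, and 15 of the 26 fell in the other 3 conditions.

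**Figure D3:**
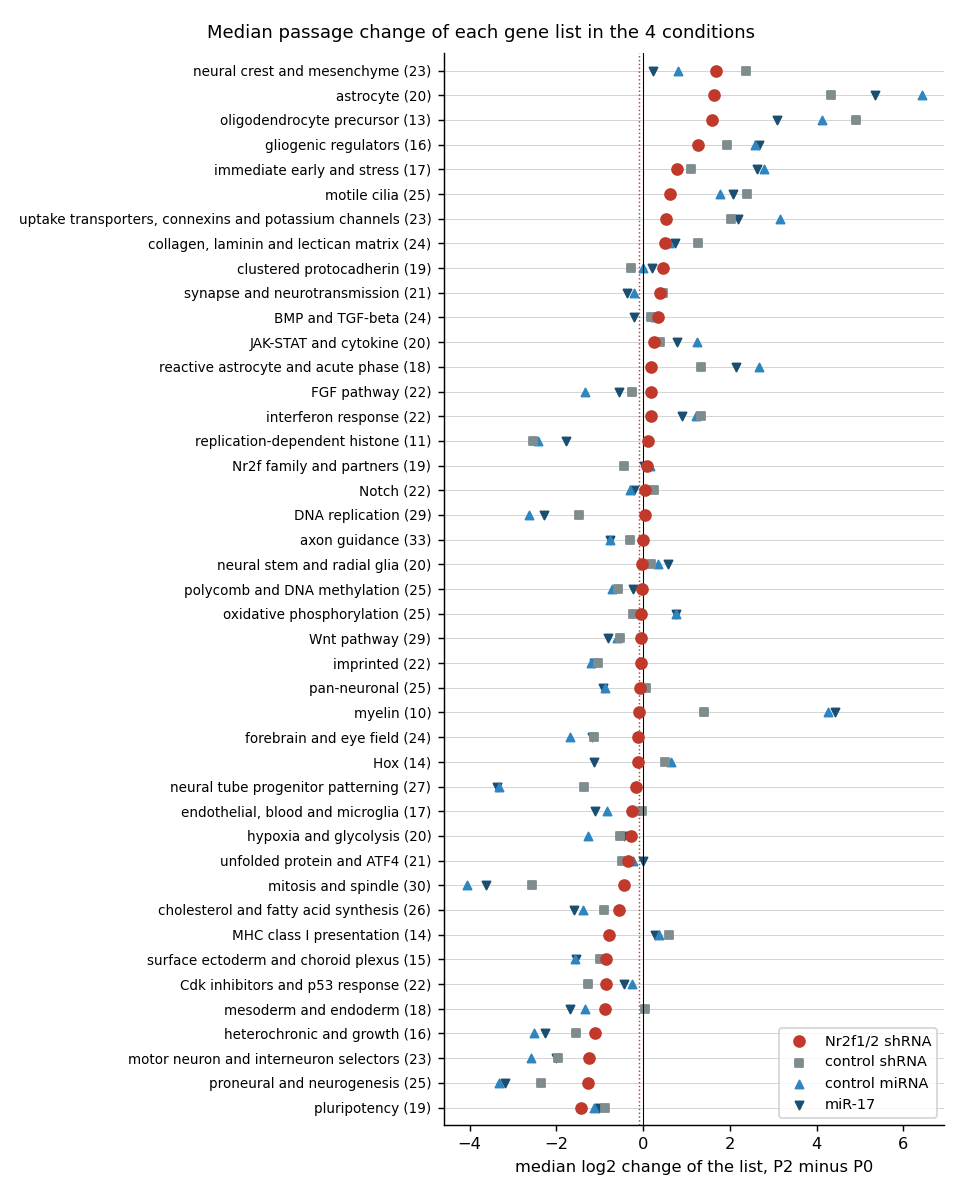
Median log2 change, P2 minus P0, of each gene list in the 4 conditions. Each row is a list with its number of readable genes, the dotted line is the median of all genes under Nr2f1/2 shRNA (-0.09), and the symbols mark Nr2f1/2 shRNA, control shRNA, control miRNA and miR-17. Under Nr2f1/2 shRNA the medians lie between -1.43 for pluripotency and 1.69 for neural crest and mesenchyme, with mitosis at -0.45 and astrocyte at 1.63, nearer to 0 than the other 3 conditions for both of these lists.

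Promoter windows from RefSeq, 250 bases before to 50 after the annotated start on GRCm38.p6, were read for genes of these groups, because the NFI genes and the mitosis genes each moved together. Glial genes with a match to the NFI motif TTGGCA are shown first, with the match on either strand in capitals, then mitosis genes with the cell cycle element TTTGAA and the box CCAAT in capitals. Each group is marked only for its own motifs, which are not exclusive to it. The Kif23 and Prc1 windows also hold TTGGCA and the S100b window holds CCAAT, left in lower case. TTGGCA stood in 14.8% of the windows of the mitosis list, beside 12.1% over all genes compared. Sox8 lies at chr17:25570637-25570936 on the minus strand, S100b at chr10:76253586-76253885 on the plus strand and Tmem176b at chr6:48841088-48841387 on the minus strand. Mki67 lies at chr7:135716330-135716629 on the minus strand, Kif23 at chr9:61946750-61947049 on the minus strand and Prc1 at chr7:80294201-80294500 on the plus strand. Each is printed 5′ to 3′ along its gene.
Sox8: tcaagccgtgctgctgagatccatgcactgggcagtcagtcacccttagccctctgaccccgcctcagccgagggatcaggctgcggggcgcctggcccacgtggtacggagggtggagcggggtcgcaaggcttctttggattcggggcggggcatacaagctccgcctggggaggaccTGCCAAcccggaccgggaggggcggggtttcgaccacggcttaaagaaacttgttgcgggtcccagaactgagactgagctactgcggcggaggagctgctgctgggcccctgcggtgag
S100b: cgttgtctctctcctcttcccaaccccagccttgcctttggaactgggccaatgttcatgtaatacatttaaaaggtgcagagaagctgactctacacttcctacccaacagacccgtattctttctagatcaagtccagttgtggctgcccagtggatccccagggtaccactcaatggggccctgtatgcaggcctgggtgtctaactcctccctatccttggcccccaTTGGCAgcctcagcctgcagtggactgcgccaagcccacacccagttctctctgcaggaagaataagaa
Tmem176b: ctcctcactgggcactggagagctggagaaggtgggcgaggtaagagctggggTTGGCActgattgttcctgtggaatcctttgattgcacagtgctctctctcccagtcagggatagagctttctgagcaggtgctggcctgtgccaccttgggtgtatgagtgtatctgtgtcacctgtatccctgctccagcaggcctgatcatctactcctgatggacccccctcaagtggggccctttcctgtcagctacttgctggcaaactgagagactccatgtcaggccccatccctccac
Mki67: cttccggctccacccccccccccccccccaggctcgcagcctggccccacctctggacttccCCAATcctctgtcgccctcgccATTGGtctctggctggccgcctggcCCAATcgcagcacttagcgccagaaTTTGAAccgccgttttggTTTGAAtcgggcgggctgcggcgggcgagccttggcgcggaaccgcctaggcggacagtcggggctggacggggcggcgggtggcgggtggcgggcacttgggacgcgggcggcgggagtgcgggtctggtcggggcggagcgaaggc
Kif23: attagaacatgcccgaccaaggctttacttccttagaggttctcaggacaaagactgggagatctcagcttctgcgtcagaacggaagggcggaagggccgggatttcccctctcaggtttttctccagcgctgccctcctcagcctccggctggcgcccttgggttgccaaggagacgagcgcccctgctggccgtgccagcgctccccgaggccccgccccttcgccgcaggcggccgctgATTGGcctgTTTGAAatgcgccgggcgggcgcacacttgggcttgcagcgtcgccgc
Prc1: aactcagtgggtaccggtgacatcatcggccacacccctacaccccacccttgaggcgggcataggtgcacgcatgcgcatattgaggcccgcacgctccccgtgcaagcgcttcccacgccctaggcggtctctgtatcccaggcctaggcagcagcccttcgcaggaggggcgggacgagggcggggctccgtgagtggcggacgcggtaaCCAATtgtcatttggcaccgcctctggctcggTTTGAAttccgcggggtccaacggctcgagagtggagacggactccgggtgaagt

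The motif TTGGCA stood in 19.5% of the promoter windows of genes that rose in the other 3 conditions and were at least 2-fold higher with Nr2f1/2 shRNA (564 windows of 408 matched genes, out of 597). It stood in 14.5% of windows of genes that rose in the other 3 conditions but differed by under 0.5 log2 units or were lower with Nr2f1/2 shRNA (766 windows of 558 matched genes, out of 826). The share was 12.1% over all 17162 windows of the genes compared. Of the glial genes that were at least 2-fold higher with Nr2f1/2 shRNA, 25 had a window and 6 of these held the motif, in 21.9% of their 32 windows. The element TTTGAA stood in 20.5% and the box CCAAT in 47.2% of windows of genes that fell in the other 3 conditions but differed by under 0.5 log2 units or were higher with Nr2f1/2 shRNA (687 windows of 562 matched genes, out of 1162). The shares were 11.4% and 37.7% for genes that were at least 2-fold lower with it as well (308 windows of 247 matched genes, out of 565). These 2 groups also differed in base composition, with a median of 20 and 13 CG pairs per window. For the 2 groups that rose, the medians were 12 for the genes that were kept and 16.5 for those that were not. Over all windows of the genes compared the shares were 12.9% and 37.4%. Of the mitosis genes, 25 had a window, and 16 of these held both in 1 window. Counted by window, 66.7% of the mitosis windows held both, beside 5.06% of all windows compared. AGGTCA, the nuclear receptor motif, stood in 14.2% of windows of genes that rose and were kept and 12.5% of those that were not, beside 13.4% over all. The NFI motif was not the only one above its share over all windows in the 32 glial windows. There TTTGAA stood in 21.9%, the STAT motif TTCNNNGAA in 18.75% and AGGTCA in 18.75%, beside 12.9%, 7.21% and 13.4% over all. CCAAT stood in 37.5% and the AP-1 motif TGANTCA in 6.25% of them, beside 37.4% and 5.85%. Both strands were searched, 6 motifs in all, and a window with several matches counted once. A match describes the letters of the window and not a bound site.

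**Figure D4:**
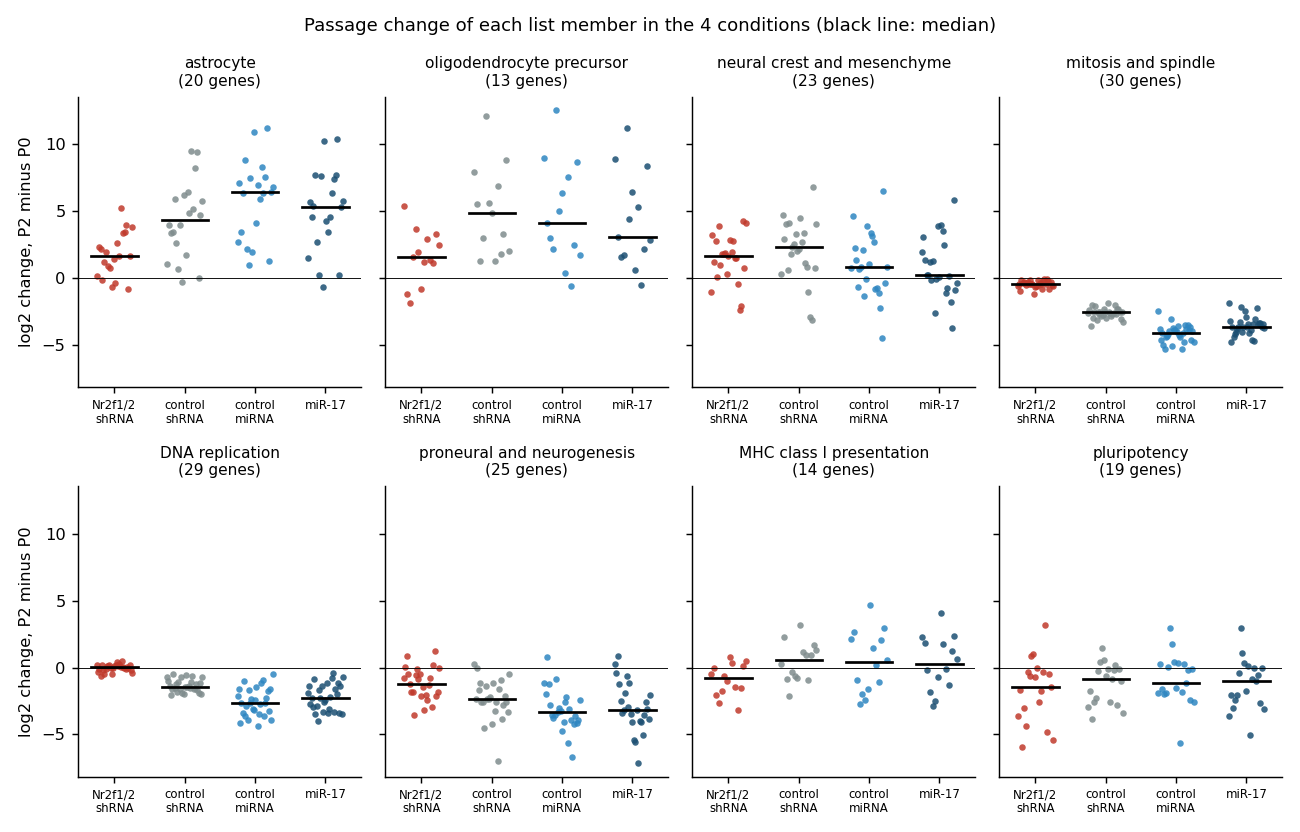
Log2 change, P2 minus P0, of each readable member of selected gene lists, with the 4 conditions along the horizontal axis, Nr2f1/2 shRNA first, and a black line at the median. The mitosis genes all lie below 0 with Nr2f1/2 shRNA, all but 1 inside the 2-fold limit, and well below 0 in the other 3 conditions. Most astrocyte genes lie above 0, with a median of 1.63 log2 units with Nr2f1/2 shRNA.

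Genes of pluripotent cells were lower at P2. Of 19 readable genes, 10 were at least 2-fold lower and 2 at least 2-fold higher, with a median of -1.43 log2 units, against -0.87 with control shRNA, -1.14 with control miRNA and -1.02 with miR-17. With only genes well above background on all 8 arrays, the median under Nr2f1/2 shRNA was -0.39. Dppa5a, a gene of undifferentiated embryonic stem cells, had 0.325 at P2 and 20.3 at P0 with Nr2f1/2 shRNA, the largest decrease among named genes well above background on both arrays of the pair. It had 1.42 and 20.8 with control shRNA, 0.511 and 1.57 with control miRNA, and 0.205 and 1.64 with miR-17. The shRNA arrays at P0 were thus above the miRNA arrays at P0. Zfp42, the stem cell factor Rex1, was not well above background at P2 and was at least 38.5-fold lower, and Fgf4, a growth factor of pluripotent cells, had 0.0275 at P2 and 0.574 at P0. Pou5f1, the factor Oct4, had 0.0292 at P2 and 0.0986 at P0. The summed relative signal of the list was 12.6 at P2 and 34.5 at P0 with Nr2f1/2 shRNA, and 10.9 to 11.9 at P2 and 16.1 to 32.5 at P0 in the other 3 conditions. Its part in the other results was not tested. Tbx3 and Klf5, 2 pluripotency genes also made in other tissues, were higher at P2, with 2.03 and 1.37 at P2 and 0.23 and 0.666 at P0.

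Markers of other cell types also moved with passage. Of 23 neural crest and mesenchyme genes, 15 were at least 2-fold higher and 3 at least 2-fold lower at P2, with a median of 1.69 log2 units, against 2.37 with control shRNA, 0.81 with control miRNA and 0.22 with miR-17. Dcn, a small proteoglycan of connective tissue, had 9.69 at P2 and 0.659 at P0 with Nr2f1/2 shRNA, and 13.7 and 0.771 with control shRNA. It had 5.82 and 3.63 with control miRNA, and 6.48 and 2.84 with miR-17. Col1a1, a fibrillar collagen chain, had 2.78 at P2 and 0.296 at P0 with Nr2f1/2 shRNA. Thy1, a surface protein of neurons and fibroblasts, had 1.61 at P2 and 0.084 at P0. Dcn was thus higher at P2 than at P0 in every condition. Tfap2a and Tfap2b, factors of early neural crest, were lower (0.0416 and 0.144 at P2, 0.219 and 0.604 at P0). The summed signal of the list was 49.0 at P2 and 16.7 at P0 with Nr2f1/2 shRNA, against 97.4 and 15.02 with control shRNA, 108.6 and 32.3 with control miRNA and 120.7 and 48.2 with miR-17. Its part in the glial and matrix values was not tested.

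Of 18 readable mesoderm and endoderm genes, 8 were at least 2-fold lower and 1 at least 2-fold higher, with Ttr, a thyroid hormone carrier of yolk sac endoderm and choroid plexus, at 0.384 at P2 and 4.56 at P0. Of 15 readable surface ectoderm and choroid plexus genes, 6 were at least 2-fold lower and 1 at least 2-fold higher, with Krt8, an epithelial keratin, at 0.142 at P2 and 1.22 at P0. Of 17 readable endothelial, blood and microglia genes, 0 were at least 2-fold higher and 2 at least 2-fold lower, with a summed signal of 38.5 at P2 and 46.5 at P0. Tek, Tie1, Cx3cr1 and Tyrobp, defining genes of endothelium and microglia, were not among the genes compared, which needed a probe well above background on at least 2 of the 8 arrays. Other markers of these cell types, among them Pecam1, Cdh5, Kdr, Ptprc, Csf1r and Aif1, were compared and readable in the pair.

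Genes of positional identity differed in direction among themselves. Of 24 readable forebrain and eye field genes, 4 were at least 2-fold higher and 5 at least 2-fold lower, with a median of -0.12 log2 units, against -1.13, -1.68 and -1.18. Fgf8, a signal of the anterior neural ridge and the midbrain-hindbrain boundary, had 7.48 at P2 and 0.812 at P0 with Nr2f1/2 shRNA. It had 0.147 and 0.324 with control shRNA, 0.109 and 1.6 with control miRNA, and 0.101 and 0.976 with miR-17, and it fell in these 3 (limma adjusted p = 0.047). Six6, an eye field and hypothalamic factor, had 9.34 at P2 and 0.25 at P0 with Nr2f1/2 shRNA, against 0.436 and 0.222 with control shRNA, 0.969 and 1.01 with control miRNA and 1.27 and 0.0611 with miR-17. Nkx2-1, the factor of ventral forebrain, had 0.931 at P2 and was not well above background at P0, so it was at least 27.9-fold higher, and its signals on the other 6 arrays were between 0.0109 and 0.108. For each of these 3 genes the P2 array with Nr2f1/2 shRNA was the highest of the 8, and 1 array in each group gives no measure of spread.

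Neural tube patterning genes had a median of -0.16 log2 units in 27 readable genes, with 4 at least 2-fold higher and 8 at least 2-fold lower, against -1.37, -3.32 and -3.36. Olig3, a factor of dorsal progenitors, had 1.23 at P2 and 1.26 at P0 with Nr2f1/2 shRNA, and on the P2 arrays of the other 3 conditions it was not well above background. Dlx2, a factor of ventral forebrain progenitors and interneurons, had 7.85 at P2 and 4.8 at P0 with Nr2f1/2 shRNA, against 1.59 and 10.4 with control shRNA. Prdm12, a factor of sensory and spinal progenitors, had 0.0573 at P2 and 0.716 at P0, and Emx2, a factor of dorsal forebrain, had 0.223 and 1.26, close to the 0.234 and 1.25 of control shRNA. Emx2 was thus lower at P2 in both shRNA pairs.

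Secreted signals split. Of 29 Wnt pathway genes, 8 were at least 2-fold higher and 6 at least 2-fold lower. Wif1, a secreted Wnt inhibitor, had 2.58 at P2 and 0.068 at P0 with Nr2f1/2 shRNA, 0.916 and 0.0663 with control shRNA, 0.424 and 0.465 with control miRNA, and 0.282 and 0.517 with miR-17. Rspo3, which enhances Wnt signalling, had 0.543 at P2 and 7.59 at P0 with Nr2f1/2 shRNA, and 0.807 and 10.9 with control shRNA. In the miRNA-system pairs Rspo3 had 2.5 and 2.66 with control miRNA, and 1.74 and 0.801 with miR-17. Of 24 BMP and TGF-beta genes, 5 were at least 2-fold higher and 1 at least 2-fold lower. Bmp4, a ligand that favours astrocytes in late progenitors, had 2.24 at P2 and 0.893 at P0, and Bmpr1b, its receptor, had 0.695 and 0.187. Of 17 immediate early and stress genes, 7 were at least 2-fold higher and 1 at least 2-fold lower. Fos, an AP-1 subunit, had 29.5 at P2 and 8.01 at P0 with Nr2f1/2 shRNA, against 46 and 4.29 with control shRNA, 85.6 and 1.26 with control miRNA and 74.2 and 1.12 with miR-17.

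Genes of antigen presentation had a median below 0 under Nr2f1/2 shRNA and above 0 in the other conditions. Of 14 readable MHC class I genes, 6 were at least 2-fold lower and none was 2-fold higher, with a median of -0.79 log2 units, against 0.59 with control shRNA, 0.38 with control miRNA and 0.28 with miR-17. H2-K1, a classical class I heavy chain, had 4.32 at P2 and 26.6 at P0 with Nr2f1/2 shRNA, and was lower at P2 in each other condition too (6.97 against 30.4, 5.39 against 35.9 and 6.12 against 21.9). Class I genes are near copies, so their probes may share signal. Tap1, a peptide transporter, was not well above background at P2 and was at least 5.05-fold lower. Of 22 interferon response genes, 4 were at least 2-fold higher and 3 at least 2-fold lower, with a median of 0.18 log2 units beside 1.34, 1.23 and 0.90. That median of 0.18 turned to -0.24 after normexp and to -0.27 with only genes well above background on all 8 arrays. Of 25 motile cilia genes, 4 were at least 2-fold higher and 2 at least 2-fold lower, with a median of 0.61 log2 units (0.16 after normexp) beside 2.40, 1.76 and 2.07. Foxj1, the master factor of motile cilia, had 1.45 at P2 and 0.493 at P0, while Dynlrb2, a dynein light chain of cilia, had 0.219 and 0.189 against 7.08 and 0.164 with control shRNA.

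The arrays with Nr2f1/2 shRNA were also set against control shRNA at the same passage. Of the 25776 readable genes, 8.89% were at least 2-fold higher and 8.82% at least 2-fold lower with Nr2f1/2 shRNA at P2, against 3.78% and 0.908% at P0. Readable genes were well above background on at least 1 Nr2f1/2 shRNA array, so genes seen only with control shRNA were left out. That filter can lower the share called lower, so the higher and lower shares are not like for like. The list values that follow use the same filter. At P2 the median difference of the mitosis list was 2.33 log2 units, with 30 of 30 genes at least 2-fold higher with Nr2f1/2 shRNA, and at P0 it was 0.13, with 1 gene. For DNA replication it was 1.85 at P2, with 26 of 29 genes at least 2-fold higher, and 0.31 at P0. For astrocyte genes it was -2.62 at P2, with 18 of 20 at least 2-fold lower, and -0.02 at P0. For motile cilia genes it was -2.18 at P2 and -0.02 at P0, and for oligodendrocyte precursor genes -3.19 and 0.03. Over all readable genes it was 0.08 at P2. For these lists the shRNA arrays were thus close at P0 and apart at P2.

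**Figure D5:**
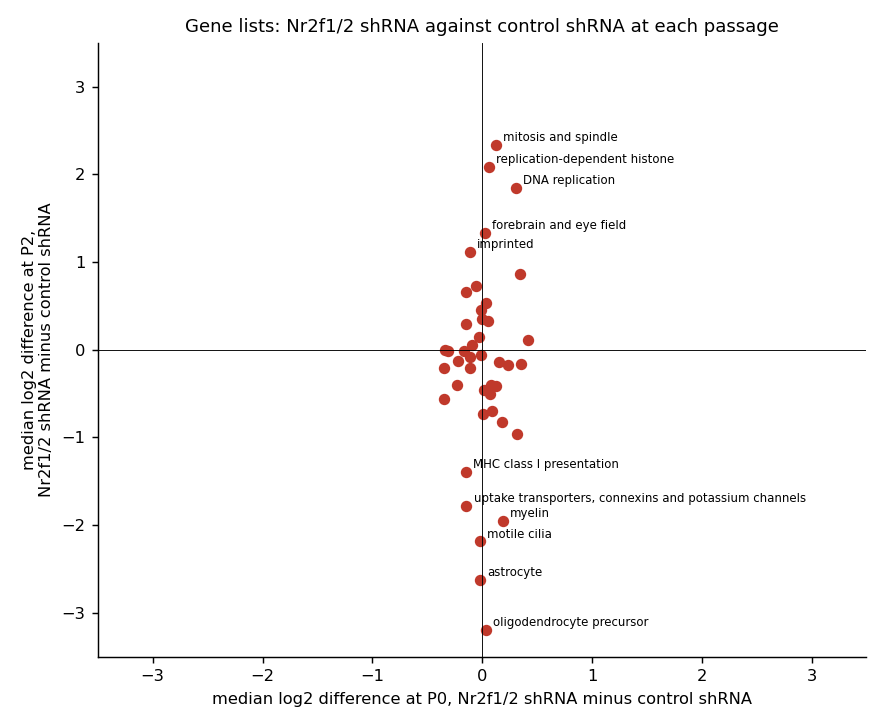
Each point is a gene list. The vertical axis is the median log2 difference between Nr2f1/2 shRNA and control shRNA at P2, and the horizontal axis is the same at P0. The lists spread from -3.19 for oligodendrocyte precursor to 2.33 for mitosis at P2, and from -0.35 to 0.41 at P0.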

How the data were processed

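Total RNA of 8 neurosphere cultures was hybridised to 8 one-colour Agilent SurePrint G3 mouse arrays, 1 per group, after labelling 50 ng with Cy3. The deposited scanner files hold the intensity of each of 62976 spots, already background-subtracted, per the file headers (Feature Extraction 10.7.3.1, mm9). A signal table was deposited as well. Its values are linear, uncentred, and equal to the scanner intensity over a fixed number for each array (481 to 949, by a rule the sources do not state), and its columns have medians of 0.0662 to 0.124.

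The deposited intensities were put on the log2 scale after control spots and 1104 outlier spots were left out, and each array's 75th percentile was subtracted. The upper quartile was 1065 at P2 and 711.4 at P0 in the Nr2f1/2 shRNA pair. The number of arrays limits the precision. Of 55653 probes, the 39640 that were well above background on 2 or more of the 8 arrays were kept, and the brightest probe stood for each of 27255 genes. Probes were named by accession through RefSeq (21379) or by the file (18261).

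The Nr2f1/2 shRNA pair was counted at 2-fold, since its own 2 arrays allow no test. limma 3.58.1 in R 4.3.3 tested the other 3 conditions, with condition as a block, and in the same fit the pair and its difference from them, with the spread taken from the other 3 (2 residual and 2.41 prior degrees of freedom), and was tested on simulated data. Its p-values are two-sided and called under 0.05 after Benjamini-Hochberg adjustment. They rest on the spread of the passage change between the other 3 conditions, which differ in treatment, and not on replicate cultures. The labels do not call the cultures independent. The members, the 43 gene lists and the tests were chosen with earlier results of these data known. Genes were named by a written rule: the largest changes each way in the pair, the targets, genes of the other 3 conditions that were kept or lost, genes 2-fold in this pair only, and per list the 5 largest changes and the 3 furthest from the other conditions. Other list members named as markers or examples were chosen after their values were seen. Alternatives were normexp with an offset of 50, quantile normalization, the authors' table, other probe filters, the mean over probes, a trended prior, no block, other fold limits and leaving out each other pair.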

Additional observations from a re-analysis of the deposited data

How the results depend on the processing

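In the Nr2f1/2 shRNA pair, the counts at least 2-fold higher and lower were 724 and 940 after normexp, 876 and 921 with probes well above background on all 8 arrays, 2671 and 4278 at a 1.5-fold limit, and 344 and 348 at 4-fold. Higher genes were 43.2% of the 2-fold calls as reported, and 53.1% after quantile normalization, where the median of all genes was -0.02 in place of -0.11 log2 units. Genes called in the other 3 conditions that were kept numbered 1016 higher and 1113 lower at 1.5-fold, 184 and 159 at 4-fold, and 360 lower after quantile normalization. Calls in the other 3 that fell numbered 5403 after normexp and 4170 with a trended prior. Genes that rose were 45.5% of all calls in the other 3 as reported, and 37.0% after normexp. The difference between the pair and the other 3 passed for 1 gene after normexp. Leaving out 1 of the other pairs moved the calls there between 0 and 5227 higher and between 0 and 8479 lower, those kept between 0 and 696 higher and between 0 and 1171 lower, and the difference between 0 and 3388 genes. The high ends came without control shRNA, and 0 came without either miRNA-system pair. List medians moved by at most 0.87 log2 units after normexp (astrocyte) and 1.04 with probes above background on all 8 arrays (pluripotency), and changed sign only where the main median was within 0.18 of 0, as for interferon response. The cause of these shifts was not tested. The reported fit pairs P2 with P0 within each condition. Without that condition block, 2716 genes rose and 3444 fell in the other 3. A block by replicate number could not be fitted, since each group holds 1 array.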

Other observations

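Many p53 target genes were lower at P2 in the Nr2f1/2 shRNA pair. Of 22 genes of the Cdk inhibitor and p53 list, 11 were at least 2-fold lower and 1 at least 2-fold higher, with a median of -0.86 log2 units, against -1.26 with control shRNA, -0.25 with control miRNA and -0.43 with miR-17. Cdkn1a, the Cdk inhibitor p21, had a relative signal of 1.47 at P2 and 8.14 at P0 with Nr2f1/2 shRNA, against 2.03 and 9.54 with control shRNA, 4.65 and 6.36 with control miRNA, and 3.33 and 7.14 with miR-17. Ccng1, a p53 target, had 2.41 at P2 and 13.7 at P0, and Phlda3, another, had 3.34 and 19.1. Cdkn2a, the locus of p16 and p19Arf, was the 1 member at least 2-fold higher (0.2 at P2, 0.0574 at P0). Of 21 unfolded protein and ATF4 genes, 6 were at least 2-fold lower and none was 2-fold higher, with a median of -0.36 log2 units. Chac1, a glutathione-degrading ATF4 target, had 0.856 at P2 and 6.21 at P0 with Nr2f1/2 shRNA, and 1.77 and 10.7 with control shRNA, and Trib3, a pseudokinase of the same response, had 0.645 and 3.83. Cdkn1a and Chac1 were thus lower at P2 in both shRNA pairs.

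Of 22 imprinted genes, 1 was at least 2-fold higher and 2 at least 2-fold lower, where 5.19% and 6.83% of all readable genes were. Their median was -0.06 log2 units beside -1.04, -1.21 and -1.14. H19, a noncoding RNA, had 0.968 at P2 and 2.49 at P0 with Nr2f1/2 shRNA. Of 19 clustered protocadherin genes, 5 were at least 2-fold higher and none was 2-fold lower, with a median of 0.47 log2 units (0.16 after normexp) beside -0.27, -0.00 and 0.19. These genes are near copies, so their probes may share signal. Of 25 oxidative phosphorylation genes, 0 reached the 2-fold limit in either direction with Nr2f1/2 shRNA.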
